A study of Homo sapiens with 4 samples.

Results

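The microRNAs described here are those best known as products of NF-kB and CREB signalling: miR-146a, miR-146b, miR-155, miR-147b, miR-132 and miR-212. They were chosen by name, as every catalogue entry for any of these 6 miRNAs, whatever its arm or copy. Of 1096 entries in the deposited table, 516 with a catalogue name and 580 predicted, 6 were found: miR-146a-5p, miR-146b-5p, miR-155-5p, miR-147b-5p, miR-132-3p and miR-212-3p. The cells were PC-3, an established human prostate cancer line, grown in DMEM with fetal bovine serum. There were 2 untreated control libraries and 2 libraries from cells given the peptide apelin, a ligand of the APJ receptor, at 10 µg/mL for 24 h. The study's design sets out to find miRNAs that differ under apelin. PC-3 is a single line. Nothing in the labels states whether libraries of the same group are separate cultures, so the p-values reflect the spread among these 4 libraries alone, and that spread may be technical. In such bulk RNA, fewer cells that make a miRNA and less of it per cell cannot be told apart.

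NF-kB and CREB are transcription factors that carry receptor signals to promoters, and some of their target promoters make primary miRNA transcripts. miR-146a is induced by NF-kB and represses TRAF6 and IRAK1, signalling proteins that lie upstream of NF-kB, so it is known as a feedback brake. miR-146b is its paralog on another chromosome. miR-155 is cut from the non-coding transcript MIR155HG, is induced in activated immune cells and represses SOCS1. miR-147b lies in the transcript of C15orf48 and rises with it in macrophages given bacterial products. miR-132 and miR-212 share a primary transcript that CREB induces in neurons and other cells, and miR-132 represses ARHGAP32, a regulator of neurite growth.

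The mature sequences are shown because the seed, the stretch from base 2 to base 8 that pairs with target mRNAs, sorts the members into families, and because the bases after it tell the paralogs apart. They are RefSeq sequences (GRCh38.p14), written 5′ to 3′ with the seed in capitals, and 5 of the 6 members were matched by name.
miR-146a-5p: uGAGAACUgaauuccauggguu
miR-146b-5p: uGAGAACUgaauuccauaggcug
miR-132-3p: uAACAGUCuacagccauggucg
miR-212-3p: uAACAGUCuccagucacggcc
miR-155-5p: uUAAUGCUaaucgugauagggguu
miR-146a-5p and miR-146b-5p have 1 seed in common, miR-132-3p and miR-212-3p another, and the seed of miR-155-5p is its own. Among the 452 of 516 catalogue entries with a RefSeq sequence, the 2 miR-146 entries were the only ones with the seed GAGAACU, and miR-132-3p and miR-212-3p the only ones with AACAGUC. The 2 miR-146 sequences are the same over their first 17 bases. Counting from 1 at the 5′ end, with the base of miR-146a-5p first, they differ by G18A and U21C, and miR-146b-5p is longer by its last base (23 nt against 22 nt). miR-132-3p and miR-212-3p part earlier, after 9 shared bases, and differ by A10C, C14U, U17C and U20C. The length listed in the deposited table equals that of RefSeq for miR-146a-5p and miR-132-3p (22 nt each). It is longer for miR-146b-5p (24 nt against 23 nt), miR-155-5p (25 nt against 24 nt) and miR-212-3p (23 nt against 21 nt). The sources used here do not give how the authors counted reads that fit both miR-146 entries, so the count of miR-146b-5p is uncertain to that extent.

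The genes lie apart, except for 1 pair (GRCh38, GENCODE release 29). MIR146A is on chromosome 5 from 160485352 to 160485450 (plus strand), in an exon of the non-coding host MIR3142HG. MIR146B is on chromosome 10 from 102436512 to 102436584 (plus strand), with no host on its strand. MIR155 is on chromosome 21 from 25573980 to 25574044 (plus strand), in an exon of MIR155HG. MIR147B is on chromosome 15 from 45433050 to 45433129 (plus strand), in an exon of the protein-coding gene C15orf48 that is annotated as UTR. MIR132 (2049908 to 2050008) and MIR212 (2050271 to 2050380) are neighbours on the minus strand of chromosome 17, with 262 bp between them.

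The libraries held 5322429 to 6014838 counts. Where a miRNA had 0 counts, a level of up to 3 counts is allowed, which is 0.499 to 0.564 TPM. TPM in this table are counts per 1000000 of the library's total, without division by length, and the mean of 10 TPM needed for testing is worth 53.2 to 60.1 counts. Intervals on counts above 0 are exact, at 95%, and for a count of 0 the limit of 3 counts is given instead. Both cover counting error only, as reads amplified by PCR and not tagged one by one can be copies of 1 molecule. Over the whole table, libraries of 1 group differed by far more than counting error. Chi-squared per degree of freedom was 574.0 between the controls and 431.1 between the apelin libraries. Of the epithelial miRNAs looked up to check the cell type, 6 of 8 names had an entry. The names without one were miR-141-3p and miR-375, the latter being listed as miR-375-3p. miR-200b-3p was abundant (6467 to 6915 TPM), followed by miR-200a-3p (903 to 1216 TPM), miR-429 (337 to 468 TPM) and miR-205-5p (72.3 to 97.7 TPM), while miR-200c-3p and miR-375-3p stood at 33.25 TPM or less in each library.

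One of the 6 dominated the set. miR-146a-5p was the 32nd most abundant of the catalogue entries by mean TPM and held 0.61% of the counts on average, while the other 5 together summed to 184.35 to 204.5 TPM in a library. Its share of the 6 members' summed level was 96.5% and 96.71% in controls 1 and 2, 97.56% in apelin 1 and 96.75% in apelin 2. The entries next to it in rank were miR-200b-3p above (6467 to 6915 TPM) and miR-30c-5p below (5830 to 6270 TPM), and the libraries of miR-146a-5p (5421 to 7569 TPM) overlapped with both. After it came miR-146b-5p at rank 135 (127.85 to 152.96 TPM) and miR-132-3p at rank 166 (42.89 to 51.56 TPM), and the libraries of these 3 did not overlap. miR-147b-5p (rank 270, 2.1 to 4.94 TPM), miR-212-3p (rank 312, 0 to 3.99 TPM) and miR-155-5p (rank 409, 0 to 1.83 TPM) came last. Neighbours among these 3 were not separated: miR-147b-5p and miR-212-3p overlapped, as did miR-212-3p and miR-155-5p. These levels also depend on how well each RNA is ligated and amplified, which was not measured.

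**Figure D1:**
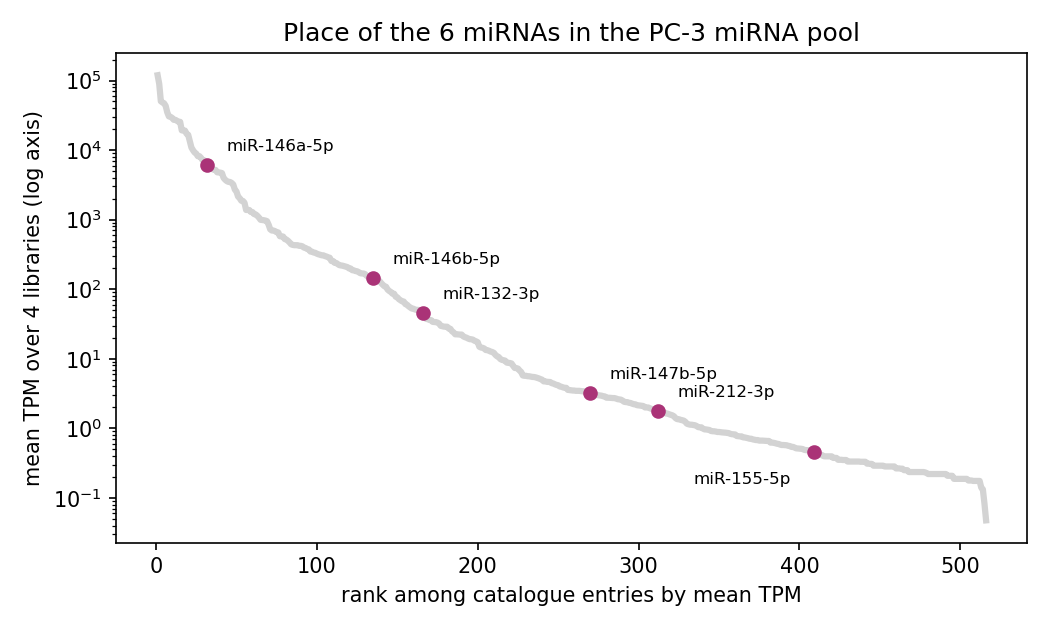
Mean TPM over the 4 libraries (log axis) of the catalogue entries, ordered by rank (grey line), with the 6 members as points. miR-146a-5p sits at rank 32, miR-146b-5p and miR-132-3p at ranks 135 and 166, and the other members at rank 270 or beyond.

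miR-146a-5p, the NF-kB feedback miRNA, stood higher in both apelin libraries than in both controls, but the difference did not pass the test. It had 5644.04 TPM in control 1, 5421.09 TPM in control 2, 7569.48 TPM in apelin 1 and 5846.16 TPM in apelin 2. Apelin 1 stood apart, at 1.29 times apelin 2, whereas apelin 2 was 1.04 times control 1 and control 1 was 1.04 times control 2. The counts behind these values ran from 30699 to 40288, so counting error was small, and the interval of apelin 2 (5784 to 5909 TPM) did not reach that of control 1 (5584 to 5704 TPM). The control mean was 5533 ± 158 TPM (SD, n = 2) and the apelin mean 6708 ± 1219 TPM (SD, n = 2), so the larger spread lay in the apelin group. The log2 fold change was 0.29 (SE 0.15, 95% interval -0.18 to 0.76, edgeR adjusted p = 0.627), a fold of 1.22 with an interval from 0.88 to 1.70. Without apelin 1 it was 0.13, and without apelin 2 it was 0.38.

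miR-146b-5p, which has the same seed, did not separate apelin from control. It had 152.96 TPM in control 1, 127.85 TPM in control 2, 141.66 TPM in apelin 1 and 148.56 TPM in apelin 2. Both apelin libraries lay between the 2 controls. The log2 fold change was 0.065 (SE 0.20, 95% interval -0.57 to 0.70, edgeR adjusted p = 0.909). That interval runs from a fold of 0.67 to one of 1.63, so changes within it could not be told from no change with these libraries.

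Within each library miR-146a-5p was far more abundant than its paralog. The ratio of their TPM was 36.9 and 42.4 in controls 1 and 2, 53.4 in apelin 1 and 39.4 in apelin 2. The highest ratio was in apelin 1, and apelin 2 lay between the controls, so the groups overlapped. Over the 4 libraries the log2 ratio was 5.41 ± 0.23 (SD, n = 4), a ratio of 42.6. miR-146a-5p was higher in 4 of 4 libraries (exact sign-flip permutation test over libraries, two-sided, p = 0.125, the smallest that 4 libraries can give). The log2 ratio was 5.31 ± 0.14 (SD, n = 2) in controls and 5.52 ± 0.31 (SD, n = 2) with apelin. Its difference of 0.21 was within the spread of the apelin libraries (two-sided exact permutation p = 0.667, with 0.333 the lowest a 2 against 2 design allows), and it was -0.0074 without apelin 1. Put as a share, miR-146b-5p made up 2.64% (exact interval 2.47% to 2.81%) of the counts of both in control 1, 2.30% (2.14% to 2.48%) in control 2, 1.84% (1.71% to 1.97%) in apelin 1 and 2.48% (2.32% to 2.65%) in apelin 2. The interval of apelin 1 lay below those of the other 3 libraries. The share in apelin 1 was thus lower by more than counting error, while that in apelin 2 was not. Libraries of 1 group also differed by more than that error over the whole table, so this is not read as a group difference.

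**Figure D2:**
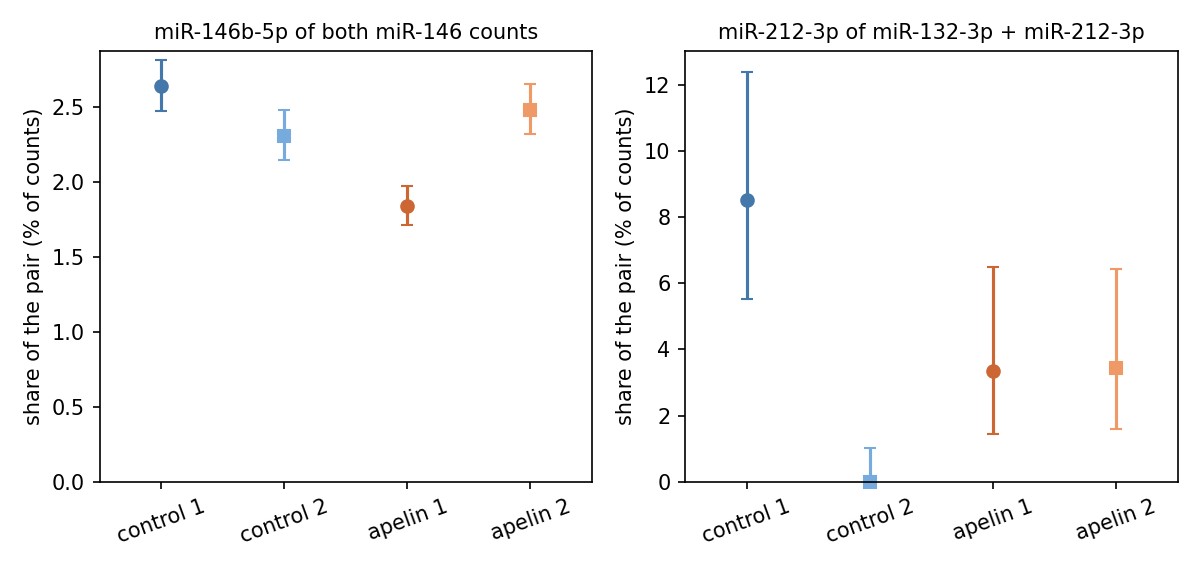
Left, share of miR-146b-5p in the counts of miR-146a-5p and miR-146b-5p. Right, share of miR-212-3p in the counts of miR-132-3p and miR-212-3p, in percent for each library, with exact 95% intervals as bars, or up to the limit of 3 counts for a count of 0. On the left apelin 1 is the lowest at 1.84%, and on the right control 1 is the highest at 8.51% with control 2 at 0.

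miR-155-5p, the miRNA of activated immune cells, was at the edge of detection. It had 11 counts in control 1 (1.83 TPM, exact interval 0.91 to 3.27 TPM) and 0 counts in control 2, apelin 1 and apelin 2. The limits for those zeros are 0.53 TPM in control 2, 0.564 TPM in apelin 1 and 0.526 TPM in apelin 2. The signal thus came from 1 control library, and the controls parted from each other as far as control 1 did from the apelin libraries. Of the 177 catalogue entries with a mean under 1 TPM, 122 (68.9%) were above 0 in a single library. Of the 8 blood and immune miRNAs looked up beside it, 4 had an entry, while miR-142-3p, miR-142-5p, miR-144-3p and miR-451a had none. The 4 with an entry had a summed level of 556.62 TPM in control 1, 401.92 TPM in control 2, 459.38 TPM in apelin 1 and 442.88 TPM in apelin 2. Most of that sum was miR-342-3p (516.22 TPM in control 1 and 364.13 to 423.49 TPM in the others). miR-486-5p, known from red cells, was at 35.74 and 37.08 TPM in the controls and at 33.82 and 28.24 TPM in apelin 1 and 2. The myeloid miR-223-3p was at 3.33 TPM or less, with 0 in control 2 and apelin 2, and the lymphoid miR-150-5p at 1.33 TPM or less, with 0 in apelin 1. The sum was highest in control 1, the library with the 11 counts of miR-155-5p, and its part in those counts was not tested.

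miR-147b-5p, from the C15orf48 transcript, was low in all 4 libraries. The other arm of this hairpin had no entry, so the level here is that of the 5p arm alone. It had 17 counts in control 1 (2.83 TPM), 28 in control 2 (4.94 TPM), 15 in apelin 1 (2.82 TPM) and 12 in apelin 2 (2.1 TPM). Both apelin libraries lay below both controls, though apelin 1 did so by only 0.01 TPM, and the counting intervals of all 4 overlapped (1.09 to 3.68 TPM in apelin 2 and 3.29 to 7.15 TPM in control 2 were the farthest apart). It was below the mean of 10 TPM and was not tested.

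miR-132-3p, the CREB-induced miRNA, had 42.89 TPM in control 1, 51.56 TPM in control 2, 43.4 TPM in apelin 1 and 44.2 TPM in apelin 2. In TPM both apelin libraries lay between the controls, and control 2 was the highest of the 4. In log2 CPM with the scaling of the test, apelin 1 (5.42) lay below both controls (5.46 and 5.65). On 231 to 292 counts per library, the counting interval of control 2 (45.8 to 57.8 TPM) overlapped those of the others. The log2 fold change was -0.084 (SE 0.19, 95% interval -0.71 to 0.54, edgeR adjusted p = 0.878), and it was 0.0034 without control 2. By the geometric mean over libraries, miR-146b-5p was 3.14 times as high as miR-132-3p. Of 4 miRNAs of neurons, where miR-132 is best known, 2 had an entry, while miR-124-3p and miR-9-3p had none. miR-9-5p stood at 298 to 399 TPM. miR-128-3p, listed under 2 copy names of the same mature miRNA, stood at 1212 to 1522 TPM by the higher entry. For miR-9-5p the controls stood at 297.76 and 298.96 TPM, apelin 1 at 300.05 TPM and apelin 2 at 399.2 TPM. Both apelin libraries were thus above both controls in TPM, but apelin 1 only slightly. For miR-128-3p both lay below the controls (1522 and 1486 TPM against 1212 and 1277 TPM). Of all tested entries, 20.9% lay above both controls in this way and 17.5% below. Neither miRNA passed the test (edgeR adjusted p = 0.688 for miR-9-5p and 0.627 for miR-128-3p). The vessel miRNA miR-126-3p stood at 6.32 to 13.7 TPM.

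miR-212-3p, from the neighbouring hairpin, was much lower than miR-132-3p and uneven. It had 24 counts in control 1 (3.99 TPM), 0 in control 2, 8 in apelin 1 (1.5 TPM) and 9 in apelin 2 (1.58 TPM). The controls were thus the highest and the lowest library, with the apelin libraries between them. Its share of the counts of both was 8.51% (exact interval 5.53% to 12.4%) in control 1, 3.35% (1.46% to 6.49%) in apelin 1 and 3.45% (1.59% to 6.45%) in apelin 2. In control 2 it was 0 of 292 counts, which allows a share of up to 1.03%. The interval of control 1 lay above that limit, so 2 libraries of 1 group differed by more than counting error. The mean of 1.54 ± 0.06 TPM (SD, n = 2) with apelin therefore has no settled control level beside it (2.0 ± 2.8 TPM, SD, n = 2). Of the 126 catalogue entries with a mean of 1 to 10 TPM, 63 (50.0%) were at 0 in some library.

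**Figure D3:**
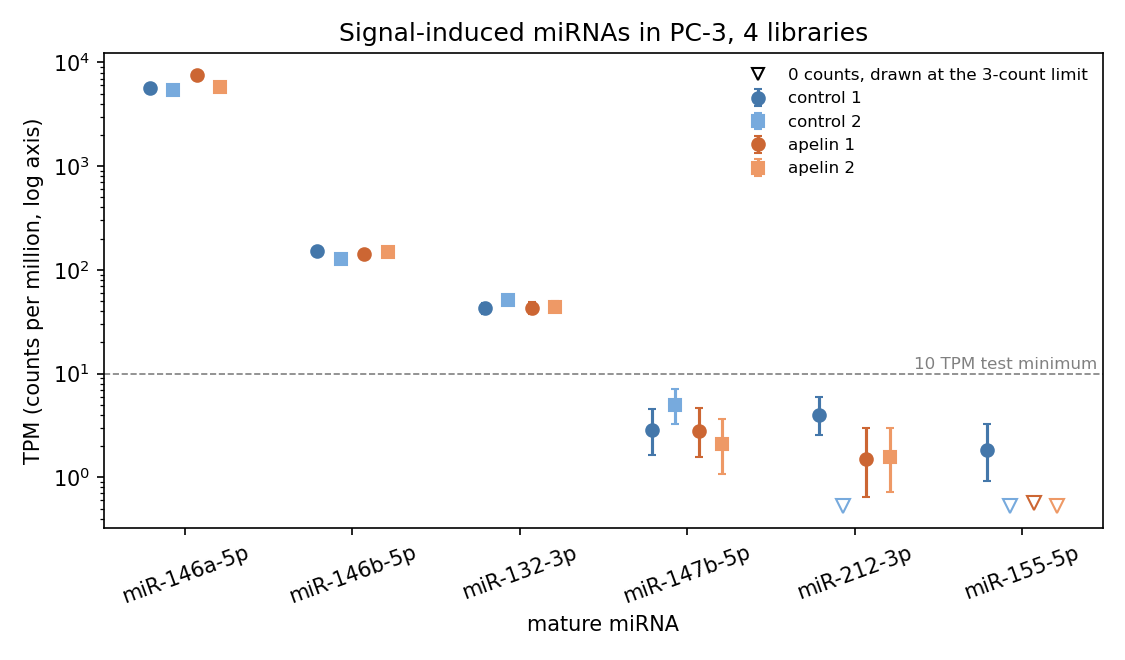
TPM (log axis) of each member in the 4 libraries, with exact 95% counting intervals as bars, which are hidden by the symbols where short. Open triangles are counts of 0, drawn at the level of 3 counts, and only the 3 members above the dashed line at 10 TPM were tested.

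None of the 3 members above the minimum was called between apelin and control. edgeR's quasi-likelihood test called 0 of these 3, and 0 had an unadjusted p under 0.05. DESeq2 called 0 of them, as did limma on log2(TPM + 1). Over all 263 tested entries edgeR called 0%, DESeq2 20.2% and limma 1.52%, and 5.7% had an unadjusted p under 0.05 in edgeR. Of the 3, miR-146a-5p had the smallest p in DESeq2 as in edgeR (DESeq2 log2 fold change 0.29, SE 0.15, adjusted p = 0.182). It was the 1 tested member whose apelin libraries both lay above both controls, a position held by 20.9% of the tested entries, and 0 of the 3 lay below both, against 17.5%. The median log2 fold change of the 3 was 0.065, beside -0.018 over all 263 entries. The summed level of all 6 members was 5849 TPM in control 1, 5605 TPM in control 2, 7759 TPM in apelin 1 and 6043 TPM in apelin 2. The log2 difference of the sums was 0.26 (two-sided exact permutation p = 0.333, also the lowest possible). Adjusted over the 3 exact tests made here, the p-values were 0.375 for the ratio over libraries, 0.5 for the sum and 0.667 for the difference in ratio. The sum followed miR-146a-5p, as it was -0.0096 with that miRNA left out.

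Other miRNAs tied to the same transcription factors in other cells were read from lists by name. Of 13 tied to NF-kB, 11 had an entry and 10 were tested. edgeR called 0 of these 10, as it called 0% of all 263 tested entries. By estimate 7 were higher with apelin and 3 lower, beside 130 higher of all 263 tested entries. The median log2 fold change of the 10 was 0.049, beside -0.018 over all 263 entries. By level the first 4 were miR-21-5p, the most abundant entry, miR-222-3p, miR-125b-5p and miR-221-3p. For miR-21-5p, an oncogenic miRNA, the controls stood at 91403 and 103045 TPM, apelin 1 at 113810 TPM and apelin 2 at 168194 TPM (log2 fold change 0.57, SE 0.27, edgeR adjusted p = 0.627). Unlike miR-146a-5p it was highest in apelin 2. miR-222-3p and miR-221-3p, repressors of p27, were at 0.058 (SE 0.050) and 0.041 (SE 0.078), and miR-125b-5p at -0.16 (SE 0.14). Of 14 tied to CREB, SRF, AP-1 or MEF2, 7 had an entry and 1 was tested, miR-22-3p, at 0.44 (SE 0.14, edgeR adjusted p = 0.627). The other 6 were below the minimum, at 4.56 TPM or less in each library. Among them were the MEF2-driven neuronal miR-134-5p (0 to 4.56 TPM), miR-184 (0 to 3.53 TPM) and, from muscle, miR-1-3p (0 to 2.12 TPM).

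**Figure D4:**
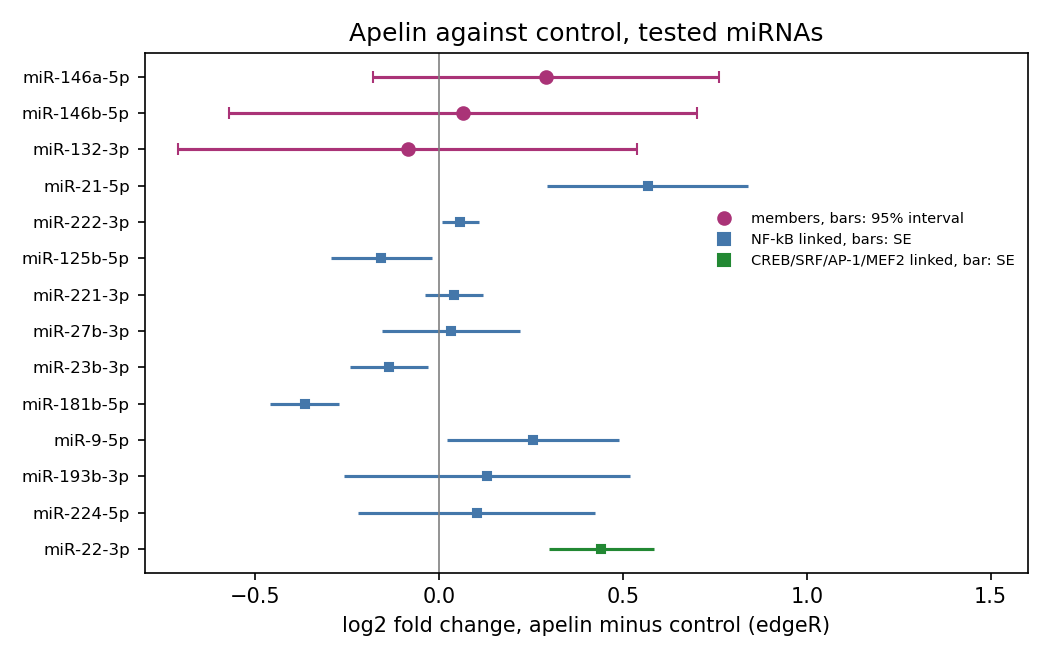
Log2 fold change, apelin minus control, from edgeR for the 3 tested members (circles, bars are 95% intervals) and the tested miRNAs of both lists (squares, bars are SE). The intervals of the 3 members all cross 0, and none of the miRNAs shown passed the threshold.

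The pattern of miR-146a-5p over the libraries, highest in apelin 1, was most like that of miR-331-3p, miR-1296-5p and miR-576-5p. Likeness was the root-mean-square distance between log2 CPM profiles over the 4 libraries, each centred on its own mean, and was 0.063, 0.072 and 0.079 for these 3, where the median over the 210 other tested catalogue entries was 0.25. For miR-331-3p the controls stood at 397.35 and 346.29 TPM, apelin 1 at 518 TPM and apelin 2 at 419.02 TPM. The same order of libraries in TPM, apelin 1 over apelin 2 over control 1 over control 2, held for it as for miR-146a-5p. In TPM it did not hold for the other 2, though it did in the log2 CPM used for likeness. There apelin 2 stood over control 1 for miR-1296-5p (7.18 against 7.16) and over both controls for miR-576-5p (3.69 against 3.63 and 3.60). The breaks in TPM were small. For miR-1296-5p control 1 (139.82 TPM) stood over apelin 2 (139.27 TPM). For miR-576-5p control 2 (12.18 TPM) stood over apelin 2 (12.1 TPM). The pattern of miR-146b-5p was most like those of miR-7-5p (0.069), a repressor of EGFR, and of miR-103a-2-3p (0.071) and miR-103a-1-3p (0.072). The last 2 are entries for copies of 1 mature miRNA, so they count as 1. For miR-7-5p the controls stood at 60.85 and 55.98 TPM, apelin 1 at 60.12 TPM and apelin 2 at 67.35 TPM. With 4 libraries these distances are a description only.

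**Figure D5:**
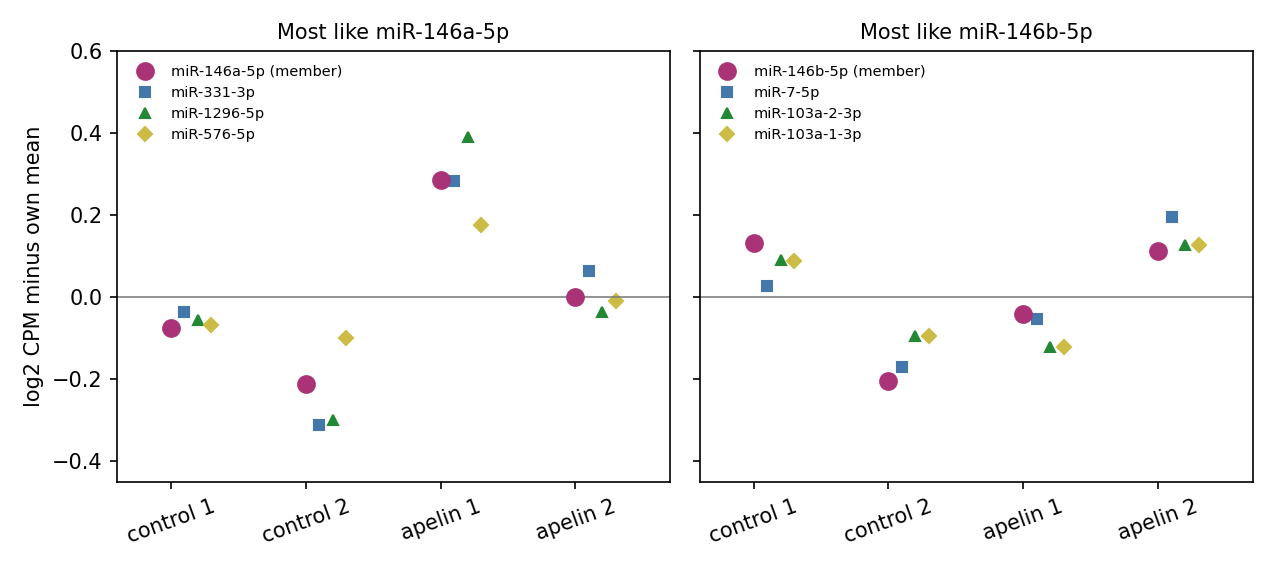
Log2 CPM minus its own mean in each library, for miR-146a-5p (left) and miR-146b-5p (right) with the 3 catalogue miRNAs of the most similar pattern. On the left apelin 1 is the highest library for all 4 miRNAs shown; on the right the miR-146b-5p points are lowest in control 2.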

How the data were processed

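Small RNA of PC-3 cells was sequenced in 4 libraries, and 1 table of mature miRNAs was used. The authors deposited raw read counts, TPM and a length in nt for each entry. The submitters' processing notes name Trimmomatic 0.30 and DESeq2. For the aligner, miRNA catalogue, build and handling of shared reads, nothing is stated in the sources used here. The deposited TPM equal count per 1000000 of the library's total, within 0.151.

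The members and lists were chosen with earlier results of these data known. Samples were grouped by their titles. edgeR 4.0.16 (quasi-likelihood, TMM, R 4.3.3) tested apelin against control, two-sided, over the 263 entries with a mean of at least 10 TPM, with Benjamini-Hochberg adjustment and a threshold of 0.05. Each SE is the absolute log2 fold change divided by the root of edgeR's F. DESeq2 1.42.0, limma 3.58.1, other filters, scalings, pseudocounts, a replicate block and leaving out each library were alternatives. The tests were checked on simulated counts. Named were all members, the 3 entries most like each of the 2 most abundant, the neighbours in rank of the first, and up to 4 of the most abundant of each list. Values per library used Python 3.11.15 and scipy 1.17.1. Sequences came from RefSeq, hairpins from GENCODE release 29, and arms or miRNAs without an entry were not analysed here.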

Additional observations from a re-analysis of the deposited data

How the results depend on the processing

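The count of called entries, 0 in edgeR, was 53 with DESeq2, 4, 5 and 4 with limma at pseudocounts of 1, 0.1 and 10, 4 at a mean of 100 TPM and 52 with no filter, and 0 to 19 with a library left out. No member was called in any of these settings. The log2 fold change of miR-146a-5p kept its direction in all 16 alternatives (0.13 to 0.38). With all 4 libraries, the lowest adjusted p among them was 0.182, in DESeq2. Both apelin libraries of miR-146a-5p stood above both controls, so leaving out a library could not turn its direction. The kept direction therefore adds no support. That of miR-146b-5p turned to -0.10 without control 2 and -0.063 without apelin 2 and reached 0.21 without control 1. That of miR-132-3p turned to 0.0034 without control 2 and reached -0.21 without control 1. The difference in the log2 ratio of the 2 miR-146 miRNAs turned to -0.0074 without apelin 1 and reached 0.43 without apelin 2, and that of the summed level to -0.0096 without miR-146a-5p. The cause was not tested, except that these leave out samples or the largest member. Replicate numbers are not said to pair the samples; deviations of same-numbered samples had a correlation of 0.314 across 207 catalogue miRNAs. With a replicate block edgeR made 0 calls (50 entries had an unadjusted p under 0.05), and miR-146a-5p had 0.29 (SE 0.087, adjusted p = 0.257). RLE scaling was added after seeing the data. With 0 to 28 counts a library, miR-155-5p, miR-212-3p and miR-147b-5p have wide counting intervals, and the controls of miR-155-5p and miR-212-3p parted by more than counting error.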
